A study of Mus musculus with 6 samples.

Results

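Cytochrome P450 genes encode haem enzymes that insert oxygen into lipids, hormones, vitamins and foreign chemicals. They were picked by symbol, as every deposited gene name of the form Cyp followed by a family number, a subfamily letter and a member number. That gave 95 of the 26214 gene names in the count tables. Pseudogene symbols and names with a further letter, such as Cyp4a12a, were left outside, 10 names in all. Among the 95, Cyp2d13 is listed by RefSeq as a transcribed pseudogene and the other 94 as protein-coding. P450 genes with other symbols, Ptgis and Tbxas1, are described with the partner genes.

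The RNA sequenced was that of colon tumours, induced in mice with azoxymethane, a carcinogen, and with dextran sulfate sodium, which injures the colon lining. Both genotypes carried this treatment: 3 libraries came from Trim21 knockout mice (Trim21 -/-) and 3 from wild-type mice (Trim21 +/+). The sources used here give neither strain, age nor the deleted stretch of Trim21. The labels call the libraries biological replicates without naming the animals. Each p-value sets the genotype difference against the spread between these samples, and the number of mice behind them is not given. Library totals were 17937821 to 19987295 counts in the knockout and 27085599 to 29742757 in the wild type. Trim21, a ubiquitin ligase and antibody receptor, measured 12.1, 18.9 and 12.8 CPM (counts per 1000000 counts of the scaled library) in knockout replicates 1 to 3 and 29.8, 20.3 and 19.5 CPM in wild-type replicates 1 to 3. Its level was lower in each knockout library than in each wild-type library, but its reads were present in all of them. Wild-type replicate 3 stood apart in genes of stratified epithelium, given beside Cyp2f2 below. In every sentence below, the 3 values of a group follow replicates 1 to 3.

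P450 enzymes of the endoplasmic reticulum take their electrons from the reductase Por, and those of mitochondria take them from ferredoxin. In the gut lining they meet chemicals from food and microbes, make signalling lipids from arachidonic acid, and break down retinoic acid, bile acid precursors and steroids. Nuclear receptors such as Nr1i2 (PXR), Vdr and Ahr switch many of them on. Azoxymethane itself is oxidised by Cyp2e1, mainly in the liver, on its way to the alkylating form.

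Of the 95 genes, 73 had at least 1 read in some library, 34 reached a mean of 1 CPM over the 6 libraries, and 39 had enough reads to be tested. The P450 genes together took 0.0724% to 0.0952% of a library's reads. None of the 39 passed edgeR's quasi-likelihood test at a Benjamini-Hochberg adjusted p of 0.05, in either direction, and the smallest adjusted p was 0.241. Across all 16281 tested genes the share past that threshold was 0%. At an unadjusted p under 0.05, 10 P450 genes were on the higher side in the knockout, against 6.63% of all tested genes, and 1 was on the lower side, against 4.12%. All 3 knockout libraries lay above all 3 wild-type libraries for 11 of the 39, against 9.43% of all tested genes, and below them for 2, against 8.47%. The median log2 fold change, knockout against wild type, was 0.23 over the 39 P450 genes and -0.01 over all tested genes. A positive value was found for 24 P450 genes, 61.5%, and for 47.9% of all tested genes.

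By DESeq2, which was run as an alternative, 47 P450 genes received an adjusted p and 8 of them passed 0.05, all higher in the knockout. These were Cyp2c68, Cyp2d9, Cyp2d10, Cyp2d12, Cyp2d13, Cyp2s1, Cyp3a13 and Cyp4f14. Over all genes with a DESeq2 adjusted p, 1.41% passed on the higher side and 0.542% on the lower side. On counts simulated from these libraries with edgeR's estimates of spread and no gene changed, DESeq2 called 23 genes and edgeR 0. Where a gene below is said to be past DESeq2's threshold, it did not pass edgeR's.

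**Figure D1:**
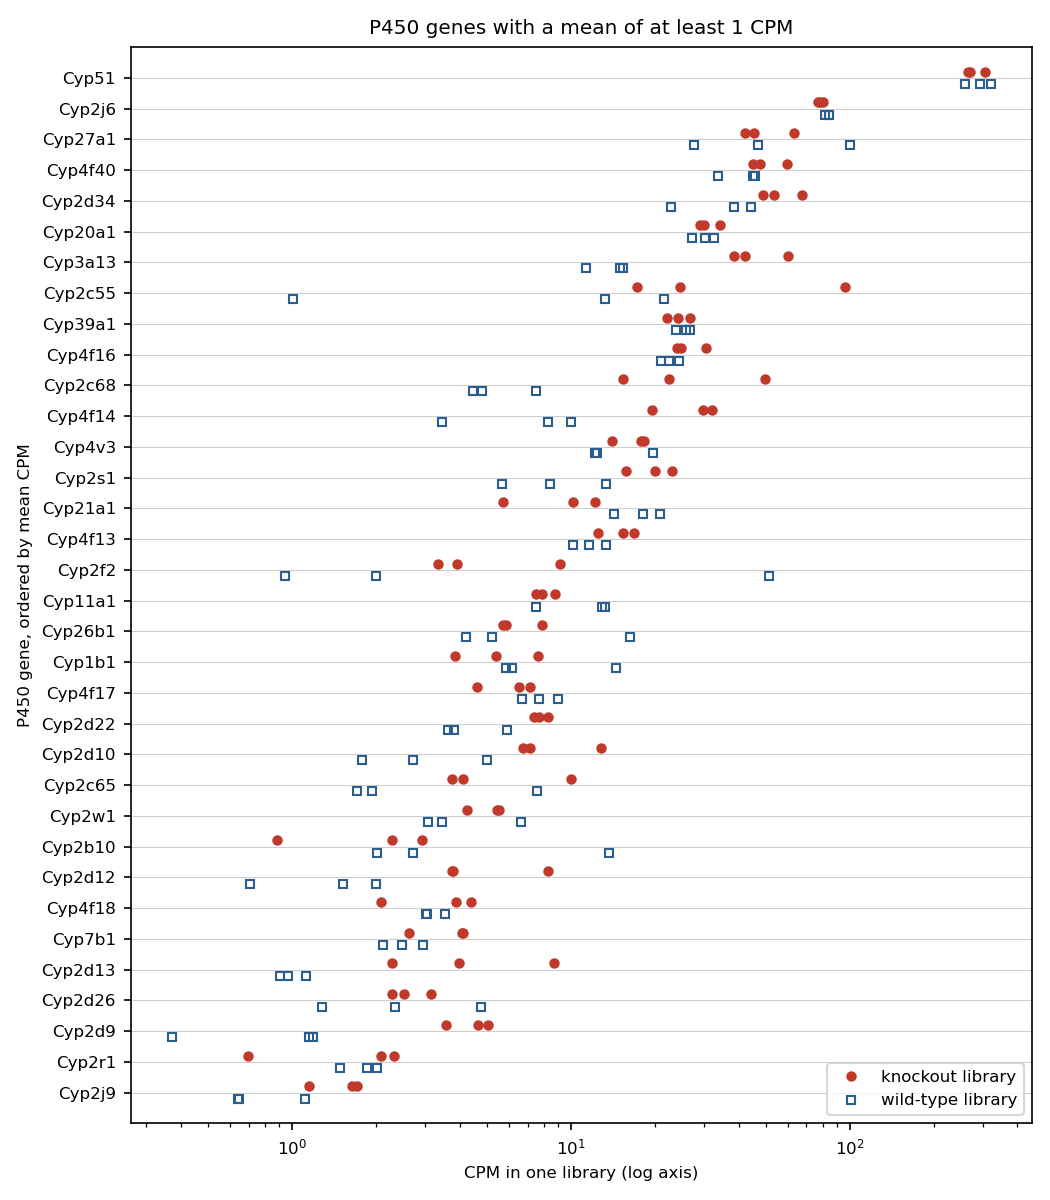
CPM (horizontal, log axis) of the 34 P450 genes with a mean of at least 1 CPM, 1 row per gene in order of mean level. Filled circles are the 3 knockout libraries and open squares the 3 wild-type libraries. Cyp51 lies far to the right of the rest with its groups mixed, while the circles of Cyp3a13, Cyp2c68 and Cyp4f14 stand apart from their squares.

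Sequences upstream of genes described below are given before their values. They were read from RefSeq's GRCm38.p6 promoter table, which held 74 of the 95 genes with 84 start sites. Of 32851 promoters of 300 bases in that table, 0.475% held the letters CAAAGTCCA, a form of the site bound by Hnf4a, a nuclear receptor of gut and liver epithelium. Both strands were searched. Among the P450 start sites, 9 of 84 held it, 10.7%, and 6 of these 9 genes belong to the Cyp2c subfamily. The stretches below run 5′ to 3′ on the strand of the gene, with those 9 letters in capitals. They are shown because the genes share the letters while their flanks and levels differ: Cyp2c68, Cyp2c40, Cyp2c67 and Cyp2c69 have similar flanks, and Cyp2c65 and Cyp2c70 do not.
Cyp2c68 (chr19:39741150-39741198, minus strand): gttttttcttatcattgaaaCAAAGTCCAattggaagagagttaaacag
Cyp2c40 (chr19:39812831-39812879, minus strand): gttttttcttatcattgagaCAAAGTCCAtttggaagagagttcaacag
Cyp2c67 (chr19:39649139-39649187, minus strand): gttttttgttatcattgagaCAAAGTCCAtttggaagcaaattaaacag
Cyp2c69 (chr19:39886816-39886864, minus strand): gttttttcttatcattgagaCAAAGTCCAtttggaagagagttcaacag
Cyp2c65 (chr19:39060870-39060918, plus strand): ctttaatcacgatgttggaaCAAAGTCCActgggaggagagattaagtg
Cyp2c70 (chr19:40187322-40187370, minus strand): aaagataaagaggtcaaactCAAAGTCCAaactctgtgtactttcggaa
Cyp3a11 (chr5:145879935-145879983, minus strand): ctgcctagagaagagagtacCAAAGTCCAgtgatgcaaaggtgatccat
Cyp3a16 (chr5:145469794-145469842, minus strand): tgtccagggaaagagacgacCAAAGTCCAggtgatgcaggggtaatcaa
Cyp8b1 (chr9:121916344-121916392, minus strand): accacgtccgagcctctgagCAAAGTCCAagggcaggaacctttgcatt
Cyp2c68 is the only one of these 9 genes with an unadjusted p under 0.05. Cyp2c65 and Cyp8b1 were tested with overlapping groups, and the other 6 had too few reads to test. The promoters of Cyp2c68 and Cyp2c69 were 91.1% identical over their 300 bases, and those of Cyp2c68 and Cyp2c65 51.4%. Cyp2c69 measured 0.248, 0.220 and 0.879 CPM in the knockout and 0, 0.135 and 0.222 CPM in the wild type.

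Within the promoters of 5 Cyp2d genes lay the letters TATAAA on the reverse strand, which read TTTATA on the gene's own strand and are in capitals below. They are shown because 2 of these genes, Cyp2d9 and Cyp2d10, had higher values in every knockout library, Cyp2d11 and Cyp2d40 gave almost no reads and Cyp2d26 showed no separation. The stretches are lined up on the capitals.
Cyp2d9 (chr15:82452312-82452364, plus strand): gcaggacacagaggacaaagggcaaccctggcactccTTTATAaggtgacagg
Cyp2d10 (chr15:82407210-82407262, minus strand): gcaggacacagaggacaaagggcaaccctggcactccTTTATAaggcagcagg
Cyp2d11 (chr15:82394050-82394102, minus strand): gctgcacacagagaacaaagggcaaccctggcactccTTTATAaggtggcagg
Cyp2d40 (chr15:82764198-82764250, minus strand): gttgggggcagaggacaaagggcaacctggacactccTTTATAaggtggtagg
Cyp2d26 (chr15:82794261-82794313, minus strand): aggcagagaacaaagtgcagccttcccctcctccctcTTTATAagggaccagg
Over these 53 positions Cyp2d9 matched Cyp2d10 at 50, Cyp2d11 at 49 and Cyp2d40 at 43, while Cyp2d26 matched Cyp2d9 at 23 and Cyp2d10 at 24. The capitals begin 28 to 43 bases before the start in the RefSeq promoter table in 4 of the genes and at -91 in Cyp2d40. These distances hold for that start only. RefSeq's Cyp2d10 and Cyp2d26 genes extend upstream of the capitals, to chr15:82407253 and chr15:82794452. GENCODE M21 also begins Cyp2d26 upstream of them, at chr15:82794294, and Cyp2d9 at chr15:82433437. Cyp2d40 had 3 reads, all in knockout replicate 1. For Cyp2d40, GENCODE M21 begins the gene at chr15:82764183, nearer the capitals than the RefSeq start at chr15:82764122. The letters TATAAA, on either strand, occurred in 13.6% of all promoters and 38.1% of the P450 start sites. A match of letters is a description and not a shown binding site.

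Next come the 250 bases before 1 start in the RefSeq promoter table for Cyp3a13, the gene with the smallest p, and for the fatty acid hydroxylase Cyp4f14. That table lists 1 start for Cyp3a13 and 4 for Cyp4f14, of which the first listed was used.
Cyp3a13 (chr5:137921620-137921869, minus strand): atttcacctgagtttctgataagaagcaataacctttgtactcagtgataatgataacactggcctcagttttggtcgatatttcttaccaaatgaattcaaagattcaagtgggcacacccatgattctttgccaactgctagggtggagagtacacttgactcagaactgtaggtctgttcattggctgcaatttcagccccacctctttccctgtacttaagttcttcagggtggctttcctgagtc
Cyp4f14 (chr17:32917357-32917606, minus strand): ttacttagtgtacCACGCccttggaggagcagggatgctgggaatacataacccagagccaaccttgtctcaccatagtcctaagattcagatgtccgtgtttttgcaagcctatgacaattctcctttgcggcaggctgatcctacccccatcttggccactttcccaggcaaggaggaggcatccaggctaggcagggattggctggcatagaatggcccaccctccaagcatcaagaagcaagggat
In Cyp4f14 the capitals mark the reverse of GCGTG, the core of the Ahr site, whose first base lies at -237 from the start. That core was found in 32.4% of all promoters and in 21.4% of P450 start sites. The Cyp3a13 promoter at this start held none of the 5 motifs searched, the others being AGGTCA, a nuclear receptor half-site, and TTTATG, a Cdx2 core. RefSeq's Cyp3a13 gene extends further upstream, to chr5:137925610, and the bases before that end were not searched. AGGTCA was in 16.3% of all promoters and 26.2% of P450 start sites, and TTTATG in 11.9% and 13.1%.

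Family 3 holds broad-range oxidases of drugs and steroids, of which mice carry Cyp3a13 as the form typical of the gut. Cyp3a13 (chr5:137892932-137921619 on the minus strand) measured 38.4, 42.1 and 60.1 CPM in the knockout and 15.3, 15.0 and 11.3 CPM in the wild type. The lowest knockout library was well above the highest wild-type library. Means were 46.9 ± 11.6 and 13.9 ± 2.20 CPM (mean ± SD, n = 3 each), a 3.37-fold difference with a log2 fold change of 1.75 (SE 0.21, edgeR adjusted p = 0.241) and an unadjusted p of 5.92e-05. It was past DESeq2's threshold, with an adjusted p of 1.20e-10. Leaving out 1 library at a time moved the log2 fold change between 1.53 and 1.89. Cyp3a13 carried 99.7% of the reads of its subfamily; of the other 6 members, Cyp3a44 and Cyp3a59 had no read. It sits 7452 kb from the nearest other Cyp3a gene, and none of its 50-base stretches occurs in another annotated gene. In a bulk sample of tumour, fewer cells of a type and less RNA per cell cannot be told apart, which holds for every value here.

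Cell markers of the tissue differed as well. Markers of mature colonocytes, the absorptive surface cells of the colon, summed to 1513, 1401 and 1798 CPM in the knockout and 756, 1019.7 and 1147 CPM in the wild type, without overlap. Of the 12 listed, 11 had a positive log2 fold change, 8 an unadjusted p under 0.05, 0 an edgeR adjusted p under 0.05, and the median was 1.50. Over all tested genes, 47.9% were positive and 6.63% had an unadjusted p under 0.05 on the higher side. In 9.43% of them every knockout library lay above every wild-type library. All 12 markers had reads. General colon epithelium markers summed to 8240.5, 7981 and 8342 CPM against 6974, 7629.7 and 8036 CPM, with overlap, and 2 of 12 had an unadjusted p under 0.05. Smooth muscle and macrophage markers were also higher in every knockout library, 1.96 and 1.31 times on average, and Wnt target genes were lower in every one, at 0.722 of the wild-type sum. Goblet cell markers summed to 12937, 7542 and 11157 CPM against 1948, 7562 and 3908 CPM, with overlap, wild-type replicate 1 being lowest. Muc2 held 50.9% of that sum. By member, 8 of 8 goblet markers had a positive log2 fold change, with a median of 1.35, and 5 had an unadjusted p under 0.05. Small intestinal enterocyte markers had overlapping sums, 47.9% of them Slc5a1, yet 4 of 5 tested members were higher in every knockout library, with an unadjusted p under 0.05, and their median was 1.63. Fibroblast sums overlapped, with 8 of 8 members positive, 3 of them at an unadjusted p under 0.05, and neutrophil sums overlapped with 4 of 8 positive. The part of these cell types in the P450 values was not tested.

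**Figure D2:**
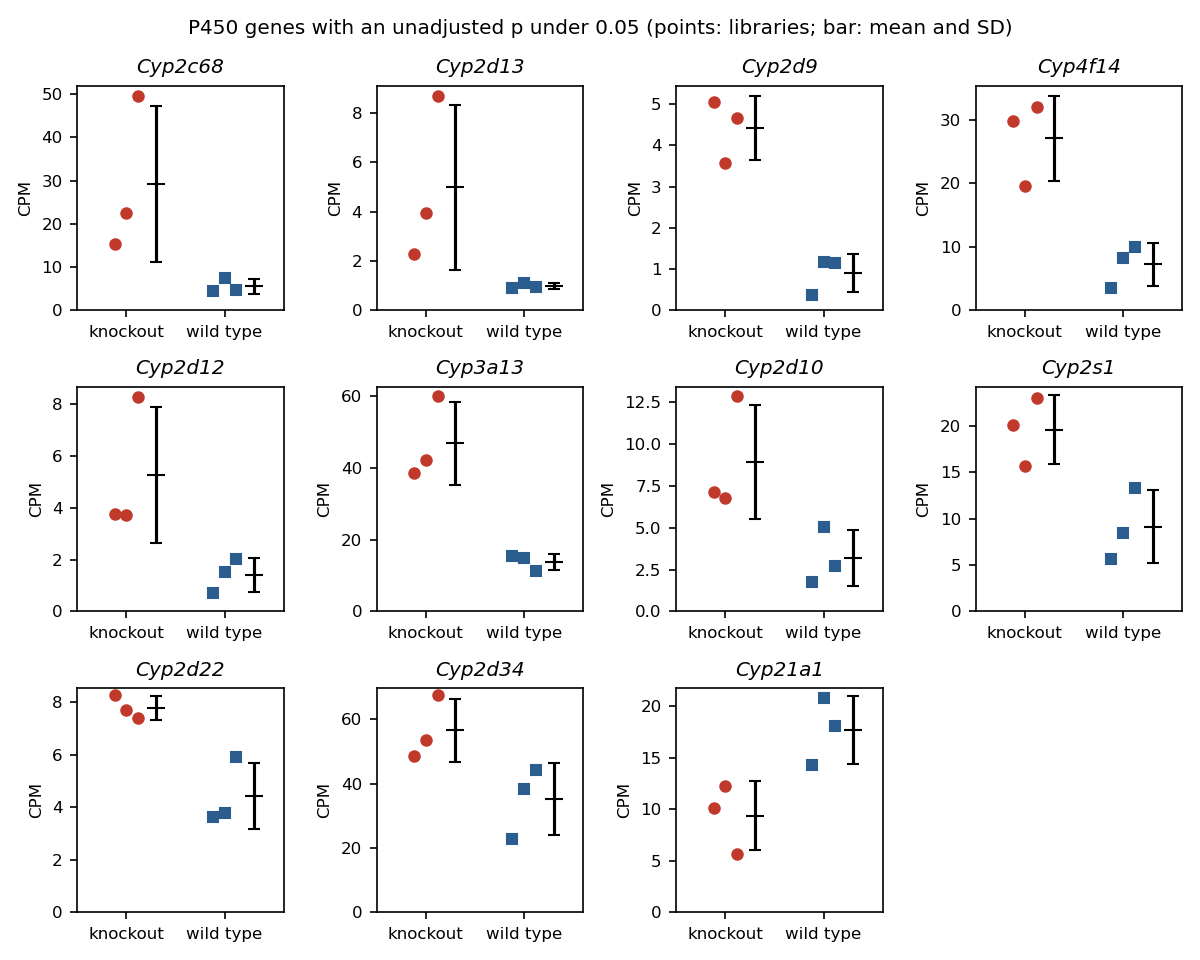
CPM (vertical, linear from 0) of the 11 P450 genes with an unadjusted p under 0.05, 1 panel per gene; points are libraries and the bar beside them the mean and SD of 3. Knockout points stand above wild-type points in 10 panels and below them in the panel of Cyp21a1.

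The Cyp2d genes oxidise a wide range of plant alkaloids, drugs and steroids. All 9 had at least 1 read, 7 were tested, and 6 of these 7 had higher values in every knockout library, each with an unadjusted p under 0.05. Of all tested genes, 9.43% were so separated and 6.63% had such a p on the higher side. Together the Cyp2d genes summed to 77.7, 82.0 and 113 CPM in the knockout and 31.5, 53.5 and 62.1 CPM in the wild type, 1.85 times on average. Cyp2d34 held 65.7% of that sum. It measured 48.7, 53.7 and 67.5 CPM against 22.8, 38.5 and 44.3 CPM, the lowest knockout value lying just above the highest wild-type value, with a log2 fold change of 0.69 (SE 0.25, edgeR adjusted p = 0.418). Its unadjusted p of 0.0284 became 0.0547 without knockout replicate 2 and 0.0981 without knockout replicate 3.

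Cyp2d9 is known in mouse liver as a testosterone hydroxylase that is higher in males. The labels used here do not give the sex of the mice. All 6 libraries held reads of the Y-linked gene Ddx3y, 91.8, 114 and 129 CPM in the knockout and 111, 111 and 92.7 CPM in the wild type. Xist of the inactive X measured 0.347, 0.220 and 0.724 CPM against 0.302, 1.59 and 3.97 CPM, highest in wild-type replicate 3. These genes were chosen after Cyp2d9 was seen. Cyp2d9 measured 5.06, 3.57 and 4.65 CPM in the knockout and 0.369, 1.18 and 1.15 CPM in the wild type, wild-type replicate 1 being lowest. Its log2 fold change was 2.29 (SE 0.47, edgeR adjusted p = 0.322), a 4.90-fold difference. The neighbouring Cyp2d10 (chr15:82402846-82407195 on the minus strand) measured 7.14, 6.75 and 12.8 CPM against 1.78, 5.01 and 2.71 CPM, with a log2 fold change of 1.49 (SE 0.44, edgeR adjusted p = 0.357). Knockout replicate 3 stood above the other knockout libraries for Cyp2d10, and so it did for the next 2 genes. Cyp2d12 measured 3.77, 3.73 and 8.27 CPM against 0.704, 1.52 and 2.00 CPM, with a log2 fold change of 1.90 (SE 0.50, edgeR adjusted p = 0.345). Cyp2d13, the transcribed pseudogene, measured 2.28, 3.95 and 8.69 CPM against 0.906, 1.12 and 0.964 CPM, with a log2 fold change of 2.31 (SE 0.51, edgeR adjusted p = 0.333). Wild-type values of Cyp2d13 were nearly equal to each other, while its knockout values spread widely. Without knockout replicate 3 its log2 fold change was 1.64.

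Cyp2d22 had the tightest knockout values of the subfamily. It measured 8.28, 7.69 and 7.39 CPM against 3.62, 3.79 and 5.89 CPM, a 1.76-fold difference with a log2 fold change of 0.81 (SE 0.25, edgeR adjusted p = 0.374). Cyp2d26 was the exception among the tested Cyp2d genes. Its values of 2.28, 2.53 and 3.15 CPM lay inside the wild-type range of 1.27, 2.34 and 4.75 CPM, with a log2 fold change of -0.07 (SE 0.48, edgeR adjusted p = 0.967). Cyp2d9, Cyp2d10, Cyp2d12 and Cyp2d13 were past DESeq2's threshold, with adjusted p of 0.000856, 0.0445, 0.0202 and 0.00313.

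The 8 Cyp2d genes that GENCODE M21 annotates stand side by side on chromosome 15, over 424 kb. Cyp2d22 and Cyp2d26 lie at opposite ends, and Cyp2d10, Cyp2d9, Cyp2d12 and Cyp2d34 between them. RefSeq places Cyp2d13 at chr15:82636750-82642045, inside the same stretch. Alike sequence limits how reads can be divided among them. Of all 50-base stretches of its transcripts, Cyp2d11 shared 37.2% with another gene, Cyp2d10 35.8%, Cyp2d9 21.8%, Cyp2d40 14.5%, Cyp2d26 9.49%, Cyp2d12 7.61%, Cyp2d34 7.55% and Cyp2d22 4.13%. No such share was computed for Cyp2d13. The way the counter treated reads with several matches is not given in the sources used here, so all of these values carry that uncertainty.

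**Figure D3:**
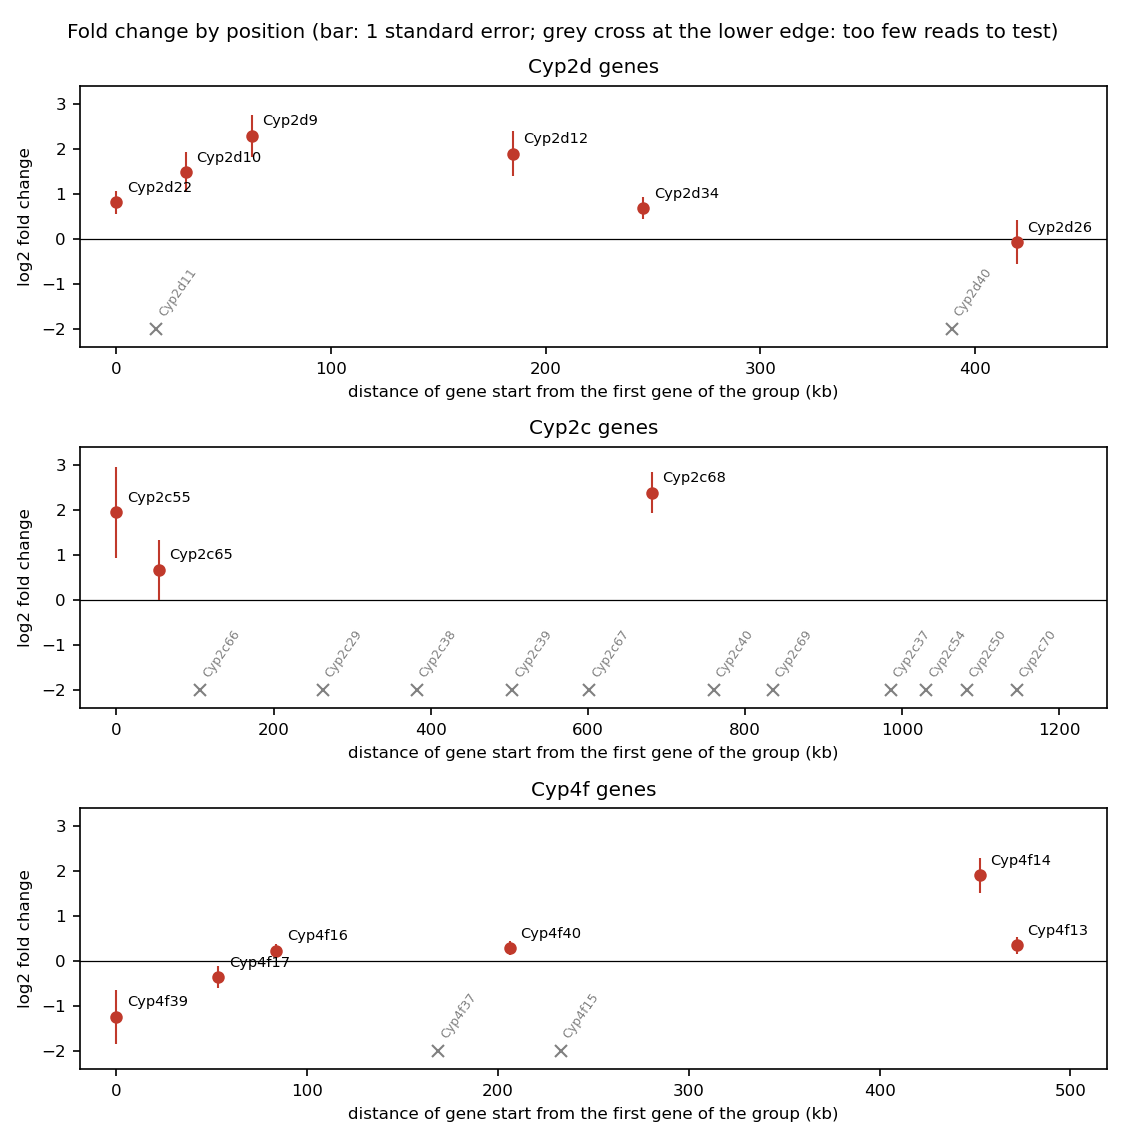
Log2 fold change, knockout against wild type (vertical; bar 1 standard error), against the distance of each gene's start from the first gene of its group in kb (horizontal), for the Cyp2d, Cyp2c and Cyp4f clusters; Cyp2d13, Cyp2c23 and members far from these clusters are not placed. Grey crosses at the lower edge are genes with too few reads to test and carry no fold change. Positive values fill the Cyp2d cluster up to Cyp2d34 and Cyp2d26 lies near 0, whereas Cyp4f14 stands apart from its Cyp4f neighbours.

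Cyp2c enzymes turn arachidonic acid into epoxides and hydroxy acids and oxidise many drugs. Of 15 listed, 7 had no read, 4 were tested, and all 4 had a positive log2 fold change, 1 of them with an unadjusted p under 0.05. Of all tested genes, 47.9% were positive and 6.63% had such a p on the higher side. The subfamily summed to 122, 52.7 and 73.7 CPM in the knockout and 7.65, 23.4 and 34.5 CPM in the wild type, and Cyp2c55 held 55.3% of it. Cyp2c68 (chr19:39688834-39741054 on the minus strand) measured 15.4, 22.6 and 49.6 CPM against 4.46, 7.52 and 4.78 CPM. Its groups did not overlap, and knockout replicate 3 was highest. The means were 29.2 ± 18.0 and 5.59 ± 1.68 CPM, a 5.22-fold difference with a log2 fold change of 2.38 (SE 0.46, edgeR adjusted p = 0.322), and of 1.76 without knockout replicate 3. DESeq2's adjusted p was 7.42e-06. Since 43.3% of its 50-base stretches occur in other genes, 35.6% in Cyp2c40 and 22.5% in Cyp2c67, part of these reads may have been assigned by the counter's rule for repeated matches. Cyp2c40 itself measured 0.0992, 0.659 and 1.03 CPM against 0.134, 0.0677 and 0.0741 CPM and was not tested.

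Cyp2c55 makes hydroxy and epoxy derivatives of arachidonic acid in the colon and is a known target of Nr1i2. It measured 96.1, 24.7 and 17.3 CPM in the knockout and 1.01, 13.3 and 21.5 CPM in the wild type. Knockout replicate 1 was by far the highest and wild-type replicate 1 by far the lowest, while the other 4 libraries were mixed. Its log2 fold change was 1.95 (SE 1.01, edgeR adjusted p = 0.524), and 0.82 without knockout replicate 1 or 1.41 without wild-type replicate 1. Cyp2c65, an epoxide-forming enzyme of the gut, measured 10.02, 3.73 and 4.09 CPM against 1.71, 1.93 and 7.56 CPM, with overlap and a log2 fold change of 0.68 (SE 0.67, edgeR adjusted p = 0.728). Wild-type replicate 3 exceeded 2 of the 3 knockout libraries for Cyp2c65, and its log2 fold change was 1.70 without that library and 0.07 without knockout replicate 1. Cyp2c23 stayed below 1 CPM, with a log2 fold change of 0.59 (SE 0.81, edgeR adjusted p = 0.805).

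The other family 2 enzymes of foreign chemicals behaved differently. Cyp2f2, which oxidises naphthalene in the lung, measured 3.32, 3.90 and 9.15 CPM in the knockout and 0.939, 2.00 and 51.3 CPM in the wild type. Wild-type replicate 3 alone held most of its reads, and the other 2 wild-type libraries lay below every knockout library. Its log2 fold change was -1.72 (SE 1.34, edgeR adjusted p = 0.656), and 1.89 without wild-type replicate 3 (edgeR adjusted p = 0.434), so its direction rests on that library. Cyp2b10, a target of the receptor Nr1i3, measured 2.28, 2.91 and 0.879 CPM against 2.01, 2.71 and 13.7 CPM, again with wild-type replicate 3 far above the rest. The log2 fold change of -1.60 (SE 0.81, edgeR adjusted p = 0.514) shrank to -0.22 without that library. Cyp2e1, the enzyme tied to azoxymethane, measured 0.843, 0.220 and 0 CPM against 0.168, 0.135 and 0.890 CPM in these tumours and was not tested. Some libraries of both groups gave it hardly any reads.

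Wild-type replicate 3 also differed in markers chosen after its values were seen. Krt5 and Trp63, markers of stratified epithelium, measured 8.27 and 6.49 CPM in it, at most 0.101 CPM in the other wild-type libraries and 0 in all knockout libraries. From the adipocyte list, Car3 measured 0.570, 0.711 and 334 CPM in the wild type and 4.02, 1.87 and 0.310 CPM in the knockout, and Plin4 1.38, 2.91 and 23.8 CPM against 3.67, 2.14 and 1.91 CPM, both highest in that replicate. Lep had reads only there, at 0.148 CPM. Fabp4 measured 10.23, 9.8176 and 15.978 CPM in the wild type and 13.986, 12.355 and 12.411 CPM in the knockout. Cidec was not raised in that replicate, at 1.88, 1.83 and 1.74 CPM against 1.34, 0.659 and 0.776 CPM. The defining markers Adipoq and Plin1 were at 0 in every wild-type library. Adipoq measured 0.347 CPM in knockout replicate 1, and Plin1 at most 0.0549 CPM in the knockout libraries. The part of these markers in the Cyp2f2 and Cyp2b10 values was not tested.

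Cyp2s1, Cyp2w1 and Cyp20a1 have no settled main substrate. Cyp2s1 (chr7:25802475-25816913 on the minus strand) is found in epithelia that face the outside, such as gut, airway and skin. It measured 20.1, 15.7 and 23.0 CPM against 5.64, 8.43 and 13.3 CPM, so the lowest knockout library lay above the highest wild-type library. Its log2 fold change was 1.10 (SE 0.32, edgeR adjusted p = 0.355), a 2.15-fold difference, and DESeq2's adjusted p was 0.0445. Exons of Cyp2s1 overlap those of Gm26707 on the opposite strand over 5.3% of their length, and strand handling is not given in the sources used here. Cyp2w1, known from the fetal gut and from colon tumours, measured 5.51, 4.23 and 5.43 CPM against 3.45, 6.64 and 3.08 CPM, with a log2 fold change of 0.20 (SE 0.34, edgeR adjusted p = 0.848). Cyp20a1 was even across all libraries, at 34.2, 30.1 and 29.1 CPM against 32.6, 27.1 and 30.3 CPM, with a log2 fold change of 0.05 (SE 0.12, edgeR adjusted p = 0.892). Only Cyp2s1 of the 3 had separated groups.

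**Figure D4:**
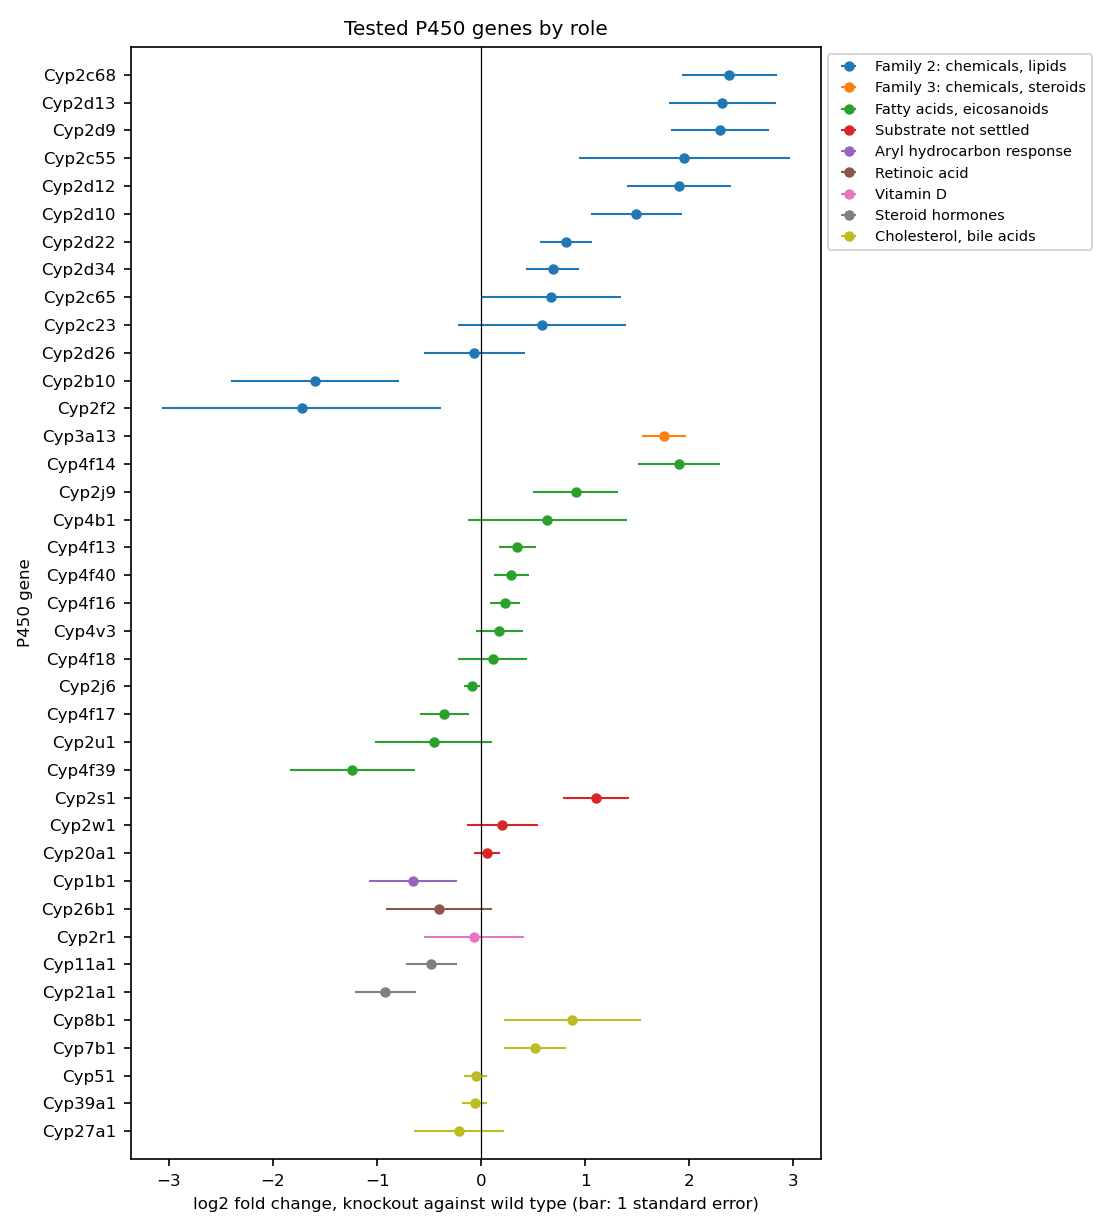
Log2 fold change, knockout against wild type (horizontal; bar 1 standard error), of the 39 tested P450 genes, coloured by role. The points furthest right are family 2 genes, Cyp4f14 and Cyp3a13, while Cyp2f2 and Cyp2b10, also of family 2, lie furthest left. The enzymes of cholesterol, bile acid and steroid hormone metabolism lie near or left of 0 except Cyp7b1 and Cyp8b1. None of the 39 passed edgeR's adjusted threshold.

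Fatty acid and eicosanoid oxidation covers family 4, the Cyp2j subfamily and Cyp2u1, 25 genes of which 12 were tested and 6 had no read. Of the 12, 8 had a positive log2 fold change, against 47.9% of all tested genes, and the median was 0.20. An unadjusted p under 0.05 was found for 1, on the higher side, against 6.63% of all tested genes. Cyp4f14 (chr17:32905070-32917342 on the minus strand) hydroxylates leukotriene B and long-chain fatty acids at the end of the chain. It measured 29.8, 19.5 and 32.0 CPM in the knockout and 3.45, 8.29 and 10.01 CPM in the wild type. Every knockout library lay above every wild-type library, with knockout replicate 2 lowest of its group and wild-type replicate 1 lowest of all. Means were 27.1 ± 6.67 and 7.25 ± 3.399 CPM, a 3.74-fold difference with a log2 fold change of 1.90 (SE 0.39, edgeR adjusted p = 0.322). DESeq2's adjusted p was 0.000164, and 2.39% of its 50-base stretches occur in another gene.

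The other Cyp4f genes differed less. Cyp4f40, the most abundant of them, measured 47.7, 45.03 and 59.7 CPM against 33.7, 45.8 and 45.1 CPM, with overlap and a log2 fold change of 0.29 (SE 0.17, edgeR adjusted p = 0.548). Cyp4f16 measured 24.1, 24.8 and 30.6 CPM against 24.4, 22.4 and 20.98 CPM, with a log2 fold change of 0.23 (SE 0.14, edgeR adjusted p = 0.574). Cyp4f13, next to Cyp4f14 on chromosome 17, measured 16.8, 15.4 and 12.5 CPM against 11.6, 10.2 and 13.4 CPM, with a log2 fold change of 0.35 (SE 0.18, edgeR adjusted p = 0.524). Each of these had groups that overlapped by a narrow margin. Cyp4f17 leaned the other way, at 4.61, 7.14 and 6.52 CPM against 8.99, 7.65 and 6.67 CPM, with a log2 fold change of -0.35 (SE 0.24, edgeR adjusted p = 0.604). Cyp4f18, a leukotriene hydroxylase of neutrophils, measured 2.08, 4.39 and 3.88 CPM against 3.02, 3.52 and 3.04 CPM, with a log2 fold change of 0.11 (SE 0.33, edgeR adjusted p = 0.917). Neutrophil markers overlapped between the groups as well. Below 1 CPM, Cyp4f39, an enzyme of skin barrier lipids, had a log2 fold change of -1.24 (SE 0.60, edgeR adjusted p = 0.503) and was highest in wild-type replicate 3, at 1.89 CPM. The Cyp4f sum was 126, 117 and 146 CPM against 86.1, 98.9 and 101 CPM, 1.36 times on average and without overlap.

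Cyp2j6, an epoxygenase of linoleic and arachidonic acid, was among the steadiest members. It measured 78.0, 80.4 and 77.2 CPM in the knockout and 84.6, 81.8 and 84.3 CPM in the wild type. The groups did not overlap, yet the means of 78.6 ± 1.69 and 83.6 ± 1.53 CPM differed by a log2 fold change of -0.09 (SE 0.08, edgeR adjusted p = 0.699). Cyp2j9, which is best known from brain, measured 1.64, 1.15 and 1.71 CPM against 0.637, 0.643 and 1.11 CPM, with a log2 fold change of 0.91 (SE 0.41, edgeR adjusted p = 0.482) and groups that narrowly missed each other. It was the gene just inside the limit of 1 CPM, with a mean of 1.15 CPM, and Cyp4f39 and Cyp4b1 were just outside, at 0.758 and 0.745 CPM. Cyp4v3, a fatty acid hydroxylase, measured 14.1, 18.2 and 17.8 CPM against 19.8, 12.2 and 12.4 CPM, with overlap and a log2 fold change of 0.18 (SE 0.23, edgeR adjusted p = 0.792). Among those below 1 CPM, Cyp4b1 and Cyp2u1 had log2 fold changes of 0.64 (SE 0.76) and -0.46 (SE 0.56). Cyp4a10, Cyp4a14 and Cyp4a31, fatty acid hydroxylases of liver and kidney under Ppara, had no read.

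None of the 5 tested enzymes of cholesterol, oxysterol and bile acid metabolism had separated groups. Cyp51, which removes a methyl group from lanosterol in cholesterol synthesis, measured 307, 270.0 and 267 CPM against 322, 294 and 259 CPM. Its groups overlapped fully, with a log2 fold change of -0.05 (SE 0.11, edgeR adjusted p = 0.876), and it held 34.0% of all P450 reads. Cyp27a1, the mitochondrial hydroxylase of the sterol side chain, measured 45.5, 63.1 and 42.1 CPM against 99.9, 27.6 and 46.9 CPM. The wild type held both the highest and the lowest value, with a log2 fold change of -0.21 (SE 0.43, edgeR adjusted p = 0.876). Without wild-type replicate 1 it was 0.43 (edgeR adjusted p = 0.722). Cyp39a1, an oxysterol hydroxylase, was even, at 26.8, 24.2 and 22.1 CPM against 26.7, 25.8 and 23.9 CPM, with a log2 fold change of -0.06 (SE 0.12, edgeR adjusted p = 0.871). Cyp7b1, another oxysterol hydroxylase, measured 2.63, 4.06 and 4.09 CPM against 2.48, 2.95 and 2.11 CPM, with overlap and a log2 fold change of 0.51 (SE 0.30, edgeR adjusted p = 0.554). Cyp8b1 stayed below 1 CPM, with a log2 fold change of 0.88 (SE 0.66, edgeR adjusted p = 0.645). Cyp7a1, the rate-limiting enzyme of bile acid synthesis in the liver, had no read.

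Both tested steroid hormone enzymes had negative log2 fold changes. Cyp21a1 (chr17:34801348-34804561 on the minus strand), the hydroxylase of the route to corticosterone, measured 10.2, 12.2 and 5.69 CPM in the knockout and 14.3, 20.8 and 18.1 CPM in the wild type. The highest knockout library was below the lowest wild-type library. Means were 9.37 ± 3.35 and 17.7 ± 3.28 CPM, 1.89 times higher in the wild type, with a log2 fold change of -0.92 (SE 0.29, edgeR adjusted p = 0.388) and an unadjusted p of 0.0162, which was 0.0541 without wild-type replicate 2. Cyp21a1 shared 21.3% of its 50-base stretches with other genes, mostly the pseudogene Cyp21a2-ps, and 4.8% of its exon length with Tnxa on the opposite strand. Among other genes looked at, the complement gene C4b went the other way, at 77.3, 119.7 and 135 CPM against 44.98, 64.3 and 54.4 CPM. Tnxb measured 18.7, 13.2 and 18.1 CPM against 4.06, 11.9 and 18.7 CPM, with overlap. Cyp11a1, which cuts the cholesterol side chain as the first step of steroid synthesis, measured 8.78, 7.52 and 7.86 CPM against 12.9, 7.52 and 13.2 CPM. Wild-type replicate 2 was level with the lowest knockout library, and the log2 fold change was -0.48 (SE 0.25, edgeR adjusted p = 0.524). Cyp11b2 and Cyp19a1 had no read. Markers of adrenal or gonadal steroid cells summed to 9.03, 9.99 and 9.57 CPM against 10.1, 8.97 and 7.41 CPM, 85.2% of it Star, and 2 of the 8 had no read.

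Single members represented the remaining roles. Cyp1b1, an Ahr target that oxidises polycyclic hydrocarbons and oestrogens, measured 7.59, 5.38 and 3.83 CPM against 6.14, 5.86 and 14.5 CPM, wild-type replicate 3 being highest. Its log2 fold change was -0.65 (SE 0.43, edgeR adjusted p = 0.593), and -0.10 without that library. Cyp1a1, the classical Ahr target, measured 0.198, 0.110 and 0.310 CPM against 0.168, 0 and 1.26 CPM and was not tested. Cyp26b1, which breaks down retinoic acid, measured 5.70, 7.85 and 5.84 CPM against 16.2, 4.20 and 5.23 CPM. Wild-type replicate 1 stood apart from the other 5 libraries: the log2 fold change was -0.40 (SE 0.51, edgeR adjusted p = 0.782) with that library and 0.46 without it. Cyp2r1, a vitamin D hydroxylase, measured 0.694, 2.09 and 2.33 CPM against 2.01, 1.86 and 1.48 CPM, with a log2 fold change of -0.07 (SE 0.48, edgeR adjusted p = 0.963). Cyp24a1 and Cyp27b1, which inactivate and activate vitamin D, were not tested. Cyp24a1 measured 0, 0 and 0 CPM against 0.168, 0.135 and 0 CPM, and Cyp27b1 0.0496, 0.384 and 0.0517 CPM against 0.0335, 0.339 and 0.371 CPM.

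Of the 34 genes with a read that were too sparse to test, 3 had groups that did not overlap once scaled for depth. Of all tested genes, 9.43% were so separated on the higher side and 8.47% on the lower side. No such share was computed for genes too sparse to test. Cyp26a1, which breaks down retinoic acid, held 13, 5 and 6 reads in the knockout and 6, 7 and 5 reads in the wild type. Its knockout libraries were higher only after scaling, the lowest at 0.275 CPM against 0.237 CPM in the highest wild-type library. Cyp4x1 held 15, 10 and 7 reads against 0, 0 and 8, and Cyp2b19, a keratinocyte enzyme, 0, 0 and 0 against 3, 2 and 3. These are few reads, and 10.7% of the exon length of Cyp4x1 lies under Cyp4x1os. The 22 genes with no read at all, among them Cyp2c29, Cyp2c37, Cyp2c70, Cyp2b9 and Cyp2b13 of the liver, could have had up to 0.0208 CPM over the 6 libraries together, taking 3 counts as the limit that 0 counts allow. That limit covers counting error only. Hepatocyte markers summed to 161, 212 and 395 CPM against 172, 187 and 238 CPM, with overlap, 62.9% of it Apob, which gut cells also make.

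Summed over all members, P450 reads came to 944, 851 and 921 CPM in the knockout and 795, 726 and 812 CPM in the wild type. The means were 906 ± 48.2 and 778 ± 45.3 CPM, 1.16 times, without overlap. By role, the sums did not overlap on the higher side for family 3, for fatty acid oxidation (1.16 times) and for the genes of unsettled substrate (1.28 times). Steroid hormone genes did not overlap on the lower side, at 18.9, 19.8 and 13.5 CPM against 27.2, 28.4 and 31.4 CPM. The family 2 enzymes of foreign chemicals summed to 206, 142 and 197 CPM against 42.7, 82.3 and 163 CPM and overlapped through wild-type replicate 3. The log2 ratio of the means was 0.92, with 1.54 without that library and 0.57 without wild-type replicate 1. Sums follow their most abundant members and were given no test.

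**Figure D5:**
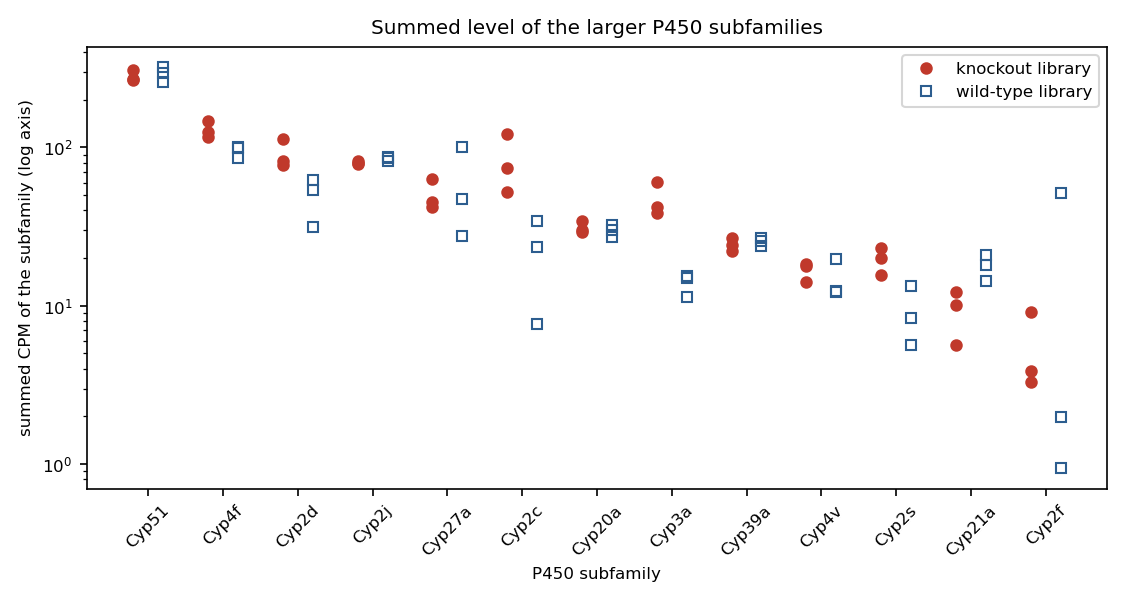
Summed CPM (vertical, log axis) of 13 P450 subfamilies in each library; filled circles are knockout and open squares wild-type libraries. Circles lie above squares for Cyp4f, Cyp2d, Cyp2c, Cyp3a and Cyp2s, and below them for Cyp2j and Cyp21a, while Cyp51, Cyp27a, Cyp20a, Cyp39a, Cyp4v and Cyp2f are mixed.

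Levels of different genes can be set side by side only per length. As mean CPM per kilobase of exon over the 6 libraries, Cyp51 stood first at 64.9, followed by Cyp27a1 at 24.9, Cyp2j6 at 22.5, Cyp4f40 at 18.5 and Cyp2d34 at 16.5. Cyp2c55 at 14.5, Cyp20a1 at 13.4, Cyp3a13 at 10.3 and Cyp2c68 at 10.1 came next. Only the lead of Cyp51 was wide. The gap between the neighbours Cyp27a1 and Cyp2j6 was smaller than the spread of the Cyp27a1 libraries, though not of the steady Cyp2j6 libraries. Cyp3a13 and Cyp2c68 lay closer together than the spread of either.

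The partner genes that feed P450s with electrons and haem were evenly divided by the sign of their fold change. Of 12 tested, 6 had a positive log2 fold change, 0 had an unadjusted p under 0.05, and the median was 0.01. Values were higher in every knockout library for 2 of the 12, 16.7% against 9.43% of all tested genes. They were lower in every one for 0, against 8.47%. Por measured 78.9, 70.2 and 57.3 CPM in the knockout and 94.5, 63.4 and 83.9 CPM in the wild type, with overlap and a log2 fold change of -0.23 (SE 0.18, edgeR adjusted p = 0.659). Alas1, the first enzyme of haem synthesis, had a log2 fold change of 0.25 (SE 0.11, edgeR adjusted p = 0.485), Pgrmc1, a haem-binding partner, 0.14 (SE 0.08, edgeR adjusted p = 0.541), and Cyb5r1, a cytochrome b reductase, -0.14 (SE 0.14, edgeR adjusted p = 0.731).

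Of 18 receptors and factors that control P450 genes, 14 had a positive log2 fold change, 77.8% against 47.9% of all tested genes. An unadjusted p under 0.05 was found for 3, all higher, 16.7% against 6.63%. Higher values in every knockout library were found for 6, 33.3% against 9.43%. The median log2 fold change was 0.23. Vdr, the vitamin D receptor, measured 121, 116 and 164 CPM against 29.6, 72.7 and 65.8 CPM. All knockout libraries lay above all wild-type libraries, with a log2 fold change of 1.25 (SE 0.33, edgeR adjusted p = 0.343) and a DESeq2 adjusted p of 0.00669. Nr1i2, the pregnane X receptor that controls Cyp3a genes, measured 36.1, 31.6 and 35.9 CPM against 20.9, 29.5 and 28.4 CPM, also separated, with a log2 fold change of 0.40 (SE 0.16, edgeR adjusted p = 0.437). Ppara, a fatty acid receptor, measured 14.5, 8.24 and 11.6 CPM against 2.65, 6.23 and 7.90 CPM, with a log2 fold change of 1.03 (SE 0.41, edgeR adjusted p = 0.438). Nr1h4, the bile acid receptor, had a log2 fold change of 0.60 (SE 0.26, edgeR adjusted p = 0.466), and Hnf4a one of 0.31 (SE 0.15, edgeR adjusted p = 0.498). Ahr measured 55.4, 66.1 and 54.8 CPM against 71.7, 62.3 and 56.2 CPM, with overlap and a log2 fold change of -0.11 (SE 0.13, edgeR adjusted p = 0.773).

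Among 15 enzymes that act before or after P450s, 8 had a positive log2 fold change, 1 had an unadjusted p under 0.05 on the higher side and 2 on the lower side. Of all tested genes, 47.9% were positive, 6.63% had such a p on the higher side and 4.12% on the lower side. Hsd11b2, which inactivates corticosterone and is also on the colonocyte list, had a log2 fold change of 2.19 (SE 0.49, edgeR adjusted p = 0.333). Ephx1, the epoxide hydrolase that follows P450 epoxidation, measured 26.8, 35.0 and 33.0 CPM against 38.5, 43.3 and 57.6 CPM, lower in every knockout library, with a log2 fold change of -0.56 (SE 0.18, edgeR adjusted p = 0.391). Rdh10 and Aldh1a3, which make retinoic acid, had log2 fold changes of -0.38 (SE 0.16, edgeR adjusted p = 0.459) and -0.60 (SE 0.28, edgeR adjusted p = 0.491). The P450 genes with other symbols, Tbxas1 (thromboxane synthase) and Ptgis (prostacyclin synthase), had log2 fold changes of 0.49 (SE 0.27, edgeR adjusted p = 0.540) and 0.25 (SE 0.40, edgeR adjusted p = 0.838).

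Cholesterol synthesis, the pathway of Cyp51, had 13 of 19 genes with a positive log2 fold change, 1 with an unadjusted p under 0.05 and a median of 0.05. Of all tested genes, 47.9% were positive and 6.63% had such a p on the higher side. Values were higher in every knockout library for 4 of the 19, 21.1% against 9.43% of all tested genes. They were lower in every one for 0, against 8.47%. Dhcr7, the last enzyme of the route, had a log2 fold change of 0.42 (SE 0.17, edgeR adjusted p = 0.453), Sqle 0.23 (SE 0.10, edgeR adjusted p = 0.474) and Msmo1 0.20 (SE 0.10, edgeR adjusted p = 0.518). The sum of the pathway overlapped between the groups.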

How the data were processed

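The authors deposited whole-number read counts per gene symbol, 1 table per library, made from ribosome-depleted total RNA per the labels' protocols. The submitters' processing notes name mm10, TopHat2, edgeR and limma, without versions or roles; which counter, annotation and strand setting were used is not given in the sources used here. P450 members, roles, gene lists and tests were chosen with earlier results of these data known.

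For each gene kept by filterByExpr, 16281 in all, edgeR 4.0.16 (R 4.3.3) fitted the deposited counts of the 6 libraries by genotype after TMM scaling and gave a two-sided quasi-likelihood p. The p-values were adjusted by Benjamini and Hochberg's method over all 16281, and 0.05 was the threshold. CPM is the count per 1000000 of the TMM-scaled total. The standard error (SE) is the log2 fold change divided by the root of F. Every P450 gene with a mean of at least 1 CPM was named, then sparser ones with separated groups or those standing for a role, and up to 4 genes per partner list by smallest p, plus Por, Ahr, Nr1i2 and Vdr in any case; 1 such gene is not reported here. Hnf4a was named outside this rule, for its site in the promoters. Positions and exon lengths come from GENCODE M21 (GRCm38, the assembly of mm10), in which 94 of 95 members were found. Promoter sequences come from RefSeq GRCm38.p6. Transcripts were compared by shared 50-base stretches.

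Alternatives were DESeq2 1.42.0, limma-voom (limma 3.58.1) with and without sample weights, other scalings and filters, thinning every library to 17937821 counts, a replicate block, and fits without each library in turn. In counts simulated for the comparison of knockout with wild type, edgeR recovered 54% of genes changed by a log2 fold change of 1 and 92% of those changed by 2 among 16055 genes, with 13 false among 171 calls. DESeq2 recovered 76% and 92% among 16278 genes, with 63 false among 241 calls. These counts were drawn for genes kept by filterByExpr, with edgeR's estimates of spread, and genes of low mean were left unchanged. The rates describe such counts and were not measured for the P450 genes of these libraries.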

Additional observations from a re-analysis of the deposited data

How the results depend on the processing

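Under each alternative run with edgeR or limma-voom, 0 P450 genes passed the adjusted threshold in either direction; DESeq2 called 8 higher and 0 lower. Over every gene, edgeR called 0, DESeq2 335 and limma-voom with sample weights 1, and leaving out each library gave 0 to 1, the 1 without wild-type replicate 3. At an unadjusted p under 0.05, the lower side held 1 P450 gene, 2 by DESeq2 and 1 to 2 with a library left out, and the higher side 9 to 14 with a library left out. The median log2 fold change of P450 genes, 0.23, was 0.39 by limma-voom with sample weights and 0.14 to 0.43 with a library left out, highest without wild-type replicate 3. Counting genes with at least 1 read gave 73 detected members in place of 34.

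Of 543 values for 34 named genes, 515 kept their direction and side of the threshold, 8 crossed it under DESeq2 and 20 reversed, in 9 genes. None of the 20 belongs to a gene with an unadjusted p under 0.05. Under limma-voom, Cyp2d26 had 0.15 and Cyp2f2 0.18. With sample weights, Cyp26b1 had 0.31, Cyp27a1 0.45, Cyp2r1 0.066 and Cyp2w1 -0.010. With a library left out, log2 fold changes ranged from -0.015 to 0.12 for Cyp20a1, -0.73 to 0.46 for Cyp26b1, -0.55 to 0.43 for Cyp27a1, -0.41 to 0.55 for Cyp2d26, -2.32 to 1.89 for Cyp2f2, -0.37 to 0.31 for Cyp2r1, -0.00048 to 0.63 for Cyp2w1, -0.10 to 0.38 for Cyp4f18 and -0.13 to 0.022 for Cyp51. Log2 ratios of summed CPM ranged from -0.15 to 0.076 for cholesterol and bile acid genes and -0.67 to 0.48 for retinoic acid genes, both positive without wild-type replicate 1, and from -0.45 to 0.18 for vitamin D genes, positive without knockout replicate 1. The cause of these reversals was not tested.

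The labels state no pairing by replicate number. Deviations from the group means correlated at -0.147, -0.175 and -0.0734 for same-numbered libraries, and between -0.092 and 0.227 for the other pairings. Deviations within a group balance each other, so these values cannot show whether the samples were paired. With the replicate block, edgeR called 0 P450 genes, and Cyp2d26 had 0.11 and Cyp2f2 0.068. Depth limits the sparse genes: a count of 3 is 0.150 to 0.167 CPM in a knockout library and 0.101 to 0.111 CPM in a wild-type library.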

Other observations

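The Y-linked genes, looked at after the P450 values were seen, did not all agree between libraries. Eif2s3y, a translation factor gene of the Y chromosome, measured 60.0, 64.2 and 66.6 CPM in knockout replicates 1 to 3 and 7.95, 5.65 and 55.9 CPM in wild-type replicates 1 to 3. Kdm5d measured 44.9 to 55.2 CPM and Uty 36.1 to 56.9 CPM over the same 6 libraries. Wild-type replicates 1 and 2 were thus low for Eif2s3y alone among the 4 Y-linked genes looked at, with Ddx3y as the fourth.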
